A study of Drosophila melanogaster with 8 samples.

Results

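The maltase genes of Drosophila melanogaster encode alpha-glucosidases, the enzymes that cleave glucose from the end of maltose, sucrose and short starch fragments. The 10 members described here are Mal-A1 to Mal-A8 and Mal-B1 and Mal-B2. They were taken by symbol from the per-library expression tables, where all 10 were found among 15296 listed gene models. RNA had been sequenced from whole female flies of 2 genotypes at 2 stages, with 2 libraries in each of 4 groups and 8 libraries in all. The genotype called A4 here is homozygous for the rearrangement In(2)A4, and the study's design text names position-effect variegation (PEV) as its subject, in which genes brought close to heterochromatin are silenced in some cells. The genotype called A12 is labelled A12/A12 and stands for the wild type in that design. Its chromosomes are not further described in the labels. Larvae were in the third instar and adults were 2 to 3 days old, and all flies were raised at 18 °C on standard food. The A4 larvae were the homozygous animals without green fluorescence from a stock kept over the CyO-GFP balancer, so they had been selected by phenotype, a step the labels do not give for the A12 larvae. Nothing in the labels tells whether the libraries of a group were made from independent cultures. The p-values therefore reflect only how far such libraries differed, which may be technical.

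Maltases act at the last step of starch and sugar digestion. Amylase first cuts starch into maltose and longer fragments, maltases on or near the midgut surface release glucose, and transporters carry it into the body. In the fly, amylase and maltase genes are known to be lowered by dietary glucose through the TGF-beta ligand Dawdle and its receptor Baboon. Mal-A1, Mal-A2 and Mal-A3 are also known by the older names LvpH, LvpD and LvpL, for larval visceral protein. The products of the other members are known mainly by their sequence family.

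The genes lie in 2 runs on chromosome 2. In the dm3 build used by the authors, the 8 Mal-A genes occupied 24300 bp of the right arm, from 2R 4337167 to 4361466, in numerical order. Mal-A1 (2R 4337167 to 4339404), Mal-A3 (4343414 to 4345390) and Mal-A7 (4357054 to 4359154) are on the minus strand. Mal-A2 (4341137 to 4343289), Mal-A4 (4346329 to 4348389), Mal-A5 (4350278 to 4352597), Mal-A6 (4352675 to 4354701) and Mal-A8 (4359488 to 4361466) are on the plus strand. Mal-B1 (2L 11847226 to 11849169) and Mal-B2 (2L 11849958 to 11852881), both on the plus strand, spanned 5656 bp of the left arm. Both lie inside the span of the long phosphodiesterase gene Pde1c (2L 11814256 to 11928572). The proteins annotated for the 10 genes in the BDGP6 annotation were 534 to 630 residues long. Most members have 1 annotated transcript, whereas Mal-A5 and Mal-B2 have 3 each and Mal-A6 and Mal-A7 have 2 each. The labels give no breakpoints for In(2)A4, so the distance from them was not measured.

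Levels were the authors' FPKM values, fragments scaled to transcript length and to the number of mapped fragments. FPKM corrects for length, so levels can be set side by side between genes, but it keeps no read counts and the depth of the libraries is unknown. Yolk protein genes Yp1, Yp2 and Yp3 stood at 1706 to 3797 FPKM in every adult library and at 0.724 to 4.27 FPKM in every larval one, the order that the stage labels give. One library went against its label. Of 13 male and testis marker genes, all 13 reached 1 FPKM in replicate 2 of the A4 larvae, although all samples are labelled female, and 0 to 3 did so in each of the other 7 libraries. Larval and A4 stage results that rest on that library are given with it. Calls of the main fit on maltase genes are given again without it. So are its calls on listed and neighbouring genes in the larval genotype comparison. Marker calls by stage and calls under other settings are not. The median difference of all 9679 tested genes between A4 and A12 larvae was -0.43 on the log2 scale, so most larval genes read lower in A4, and this scale shift is set beside the maltase values where it bears on them.

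**Figure D1:**
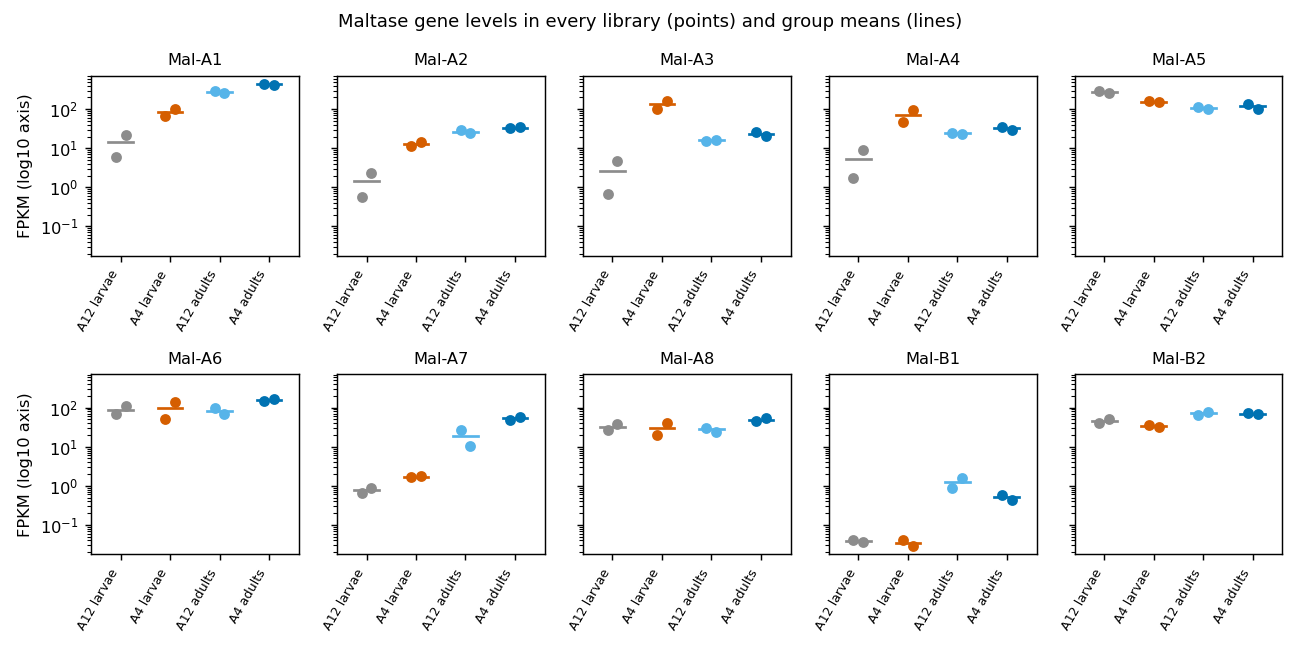
Level of each maltase gene in every library, as FPKM on a log10 axis, with 1 point per library and a line at the mean of each group of 2. Mal-A1 to Mal-A4 are low in the A12 larvae, at 0.555 to 22.3 FPKM, and higher in the other 3 groups, while Mal-A5 is highest in the A12 larvae and Mal-B1 stays at or below 1.61 FPKM.

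In the A12 larvae Mal-A5 was the most abundant maltase transcript, at 297 and 265 FPKM in replicates 1 and 2. Mal-A6 followed at 68.6 and 110.3 FPKM, then Mal-B2 at 41.1 and 52.0 FPKM and Mal-A8 at 26.3 and 37.3 FPKM. Each of these neighbours in the order was separated in both libraries, so the order from Mal-A5 down to Mal-A8 was the same in each. Below them Mal-A1, Mal-A4, Mal-A3, Mal-A2 and Mal-A7 had group means of 14.1, 5.47, 2.67, 1.43 and 0.764 FPKM. The ranges of each neighbouring pair among these 5 overlapped, replicate 2 being the higher one for all of them. Within each library Mal-A1 was above Mal-A4, Mal-A4 above Mal-A3 and Mal-A3 above Mal-A2, and Mal-A7 was the gene whose place differed between the libraries. Mal-B1 was last at 0.0402 and 0.0368 FPKM, with confidence bounds that reached 0.

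In the A4 larvae the top of the order was crowded. Mal-A5, Mal-A3, Mal-A6, Mal-A1 and Mal-A4 had group means of 156, 132, 96.7, 84.4 and 73.1 FPKM, and each neighbouring pair overlapped between libraries. Mal-B2 and Mal-A8 came next, at 33.5 ± 2.55 and 29.8 ± 14.1 FPKM (SD, n = 2), and also overlapped. Mal-A2 at 13.1 ± 2.16, Mal-A7 at 1.71 ± 0.0958 and Mal-B1 at 0.0353 ± 0.00895 FPKM each stood apart from the gene above.

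In adults of both genotypes Mal-A1 was the most abundant member. In the A4 adults it stood at 439 and 421 FPKM, 2.73 times the group mean of Mal-A6, and the next genes were Mal-A5 and Mal-B2, each separated from its neighbour. In the A12 adults it stood at 291 and 267 FPKM, followed by Mal-A5, and then by Mal-A6 and Mal-B2, which overlapped. Mal-A3, the second gene of the A4 larvae, ranked 9 of 10 in both adult groups.

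The first comparison asked which maltase genes differed between the rearranged and the wild-type genotype in larvae. Mal-A1, Mal-A2, Mal-A3 and Mal-A4, which sit side by side at the left end of the Mal-A run, were higher in the A4 larvae, and Mal-A5, the next gene, was lower. Mal-A6, Mal-A7, Mal-A8 and Mal-B2 did not pass the test, and Mal-B1 was too low to be tested. Of the 9 tested members, 4 were called higher and 1 lower at an adjusted p below 0.05, where the same fit called 8.75% of all tested genes higher and 25.9% lower. The median difference over the 9 was 0.62 on the log2 scale, against -0.43 over all tested genes.

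Mal-A3 had the largest difference of the family. It stood at 98.9 and 166 FPKM in the A4 larvae and at 0.661 and 4.68 FPKM in the A12 larvae. Both A4 libraries were far above both A12 libraries, and the ratio of the group means was 49.5. On the scale of log2(FPKM + 1) it was 5.39 ± 0.53 higher (SE, 2 libraries per group, limma, adjusted p = 0.000561).

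Mal-A4, the neighbour of Mal-A3 on the opposite strand, stood at 48.3 and 98.0 FPKM in the A4 larvae and at 1.73 and 9.21 FPKM in the A12 larvae. The groups did not overlap, although the libraries of each differed by more than those of most members. The log2 difference was 3.73 ± 0.59 (SE, limma adjusted p = 0.00408), and the ratio of the means was 13.4.

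Mal-A1 stood at 68.6 and 100.2 FPKM in the A4 larvae and at 5.97 and 22.3 FPKM in the A12 larvae. Again every A4 value exceeded every A12 value, with means 5.98-fold apart. Its log2 difference was 2.72 ± 0.51 (SE, limma adjusted p = 0.00772).

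Mal-A2, the least abundant of the 4, stood at 11.5 and 14.6 FPKM in the A4 larvae and at 0.555 and 2.31 FPKM in the A12 larvae. The groups were apart and the means differed 9.10-fold. The log2 difference was 2.62 ± 0.34 (SE, limma adjusted p = 0.00181), which the pseudocount of 1 makes smaller than the ratio of means for so low a gene.

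Mal-A5 moved the other way, from 297 and 265 FPKM in the A12 larvae to 164 and 148 FPKM in the A4 larvae. Its groups did not overlap and its A12 mean was 1.80 times the A4 mean. The log2 difference was -0.84 ± 0.21 (SE, limma adjusted p = 0.0234), of which -0.43 is the shift shared by the median gene. After the libraries were centred on their medians it was -0.38 with an adjusted p of 0.19, so the call on Mal-A5 depended on the scaling.

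The remaining members did not separate the genotypes in larvae. Mal-A6 read 52.6 and 141 FPKM in the A4 larvae against 68.6 and 110.3 FPKM in the A12 larvae, so the A4 libraries lay on both sides of the A12 ones. Mal-A8 behaved alike at 19.8 and 39.7 against 26.3 and 37.3 FPKM. The log2 differences were -0.01 ± 0.46 for Mal-A6 and -0.15 ± 0.34 for Mal-A8 (SE, limma adjusted p = 1 and 0.75), and both signs turned under median centring.

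Mal-A7 was at 1.64 and 1.78 FPKM in the A4 larvae and at 0.668 and 0.861 FPKM in the A12 larvae. The 2 groups were apart at these low levels, but the log2 difference of 0.62 ± 0.39 did not pass (SE, limma adjusted p = 0.236). Mal-B2 stood at 35.3 and 31.7 FPKM against 41.1 and 52.0 FPKM. It was lower in both A4 libraries, with a log2 difference of -0.45 ± 0.19 that did not pass (SE, limma adjusted p = 0.104) and lay close to the shift of the median gene.

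**Figure D2:**
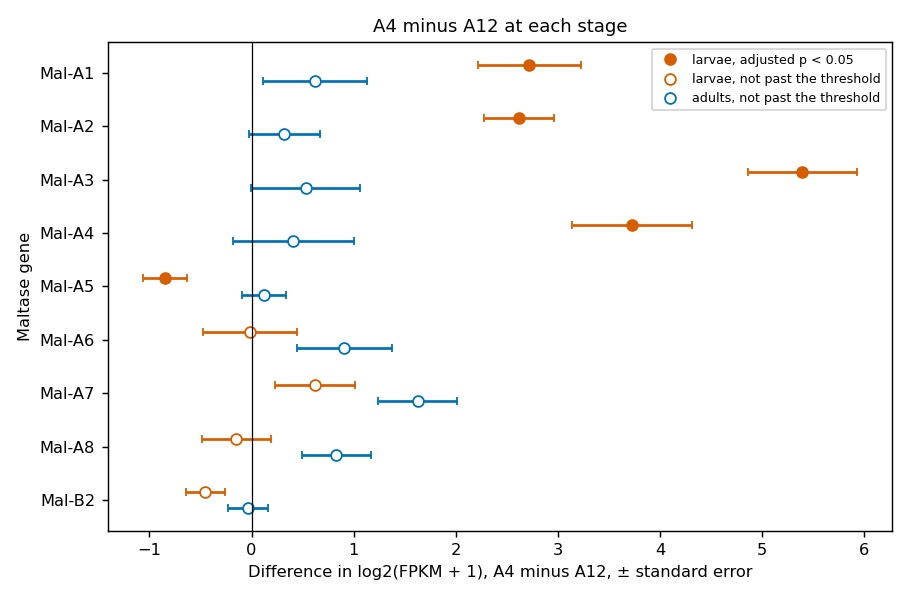
Difference between A4 and A12 for the 9 tested maltase genes, as A4 minus A12 on the scale of log2(FPKM + 1) with its standard error, in larvae and in adults. Filled points pass an adjusted p of 0.05, which Mal-A1 to Mal-A5 do in larvae and no gene does in adults.

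The larval differences of Mal-A1 to Mal-A4 had 2 limits. In a fit to the 4 larval libraries alone only 2 members were called higher, Mal-A3 and Mal-A7 (adjusted p = 0.0459), while Mal-A1 (0.0845), Mal-A2 (0.053), Mal-A4 (0.0703) and Mal-A5 (0.0549) missed the threshold. That fit called fewer genes of all kinds, 422 higher and 614 lower of 9679, against 847 and 2507 in the main fit. Without replicate 2 of the A4 larvae, the library with the male markers, the log2 differences were 2.45 for Mal-A1 (adjusted p = 0.0519), 2.46 for Mal-A2 (0.0202), 5.02 for Mal-A3 (0.00867), 3.22 for Mal-A4 (0.0339) and -0.77 for Mal-A5 (0.0819).

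The 2 libraries of the A12 larvae were themselves unequal in these genes. Replicate 2 exceeded replicate 1 by 3.73 times for Mal-A1, 4.17 times for Mal-A2, 7.09 times for Mal-A3 and 5.33 times for Mal-A4. Replicates 1 and 2 of the same group were at 297 and 265 FPKM for the neighbouring Mal-A5, where replicate 2 was the lower one. In the A4 larvae the ratios of replicate 2 to replicate 1 were 1.46, 1.27, 1.67 and 2.03 for Mal-A1 to Mal-A4, and 2.68 and 2.00 for Mal-A6 and Mal-A8. Without replicate 1 of the A12 larvae the log2 differences fell to 1.85, 2.08, 4.50 and 2.77 for Mal-A1 to Mal-A4, and without replicate 2 they were 3.59, 3.17, 6.28 and 4.68.

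Other larval measures differed between the same libraries. The storage protein gene Lsp1beta, a fat body gene of the third instar, stood at 23372 and 17336 FPKM in the A4 larvae and at 3294 and 8535 FPKM in the A12 larvae, and was called higher (log2 difference 1.92, limma adjusted p = 0.0239). Lsp2, another storage protein gene of the same stage, went the other way, at 10549 and 10709 FPKM in the A4 larvae against 20786 and 24322 FPKM in the A12 larvae (-1.08, adjusted p = 0.0185). Of the 8 fat body and stage markers tested, 1 was called higher and 2 lower, the second being the yolk protein gene Yp3 (-0.70, adjusted p = 0.0452), and the median was -0.25. Over all tested genes 8.75% were called higher and 25.9% lower, the background for these markers and for the midgut markers below. Lsp1gamma (0.06), Fbp2 (-0.40) and Lsp1alpha (2.05) did not pass. Without replicate 2 of the A4 larvae none of the 3 calls held, with Lsp1beta at 2.14 (adjusted p = 0.0659), Lsp2 at -1.09 (0.058) and Yp3 at -0.81 (0.0794). The 3 Peritrophin genes, which encode proteins of the sheath around the gut contents, summed to 10013 and 18449 FPKM in the A4 larvae and to 3906 and 9147 FPKM in the A12 larvae. The other 9 midgut markers summed to 296 and 314 FPKM in the A4 larvae and to 347 and 327 FPKM in the A12 larvae. Of the 12 midgut markers found none was at 0 in any library. Of the 11 tested, 0 were called higher and 1 lower, the septate junction gene Ssk (log2 difference -0.67, limma adjusted p = 0.0428, and -0.80 with adjusted p = 0.0602 without replicate 2 of the A4 larvae). After median centring 3 were called higher, mex1 (0.67), Tsp2A (0.97) and Peritrophin-A (1.12), and none lower. Of all 9679 tested genes, 1326 were then called higher and 982 lower. Tsp2A was also called higher in other settings, at 0.48 (pseudocount 5) to 0.73 (quantile normalization). Peritrophin-A was called higher under quantile normalization (1.01), and Peritrophin-15a with the midpoint of the confidence bounds as the level (1.66). Ssk stayed lower with either pseudocount and with that midpoint, but not under quantile normalization. Quantile normalization called 1124 of 9679 genes higher and 1185 lower. The part of larval age within the instar, of midgut content and of the male markers in the maltase differences was not tested. In whole animals, fewer cells of a type and less RNA per cell cannot be told apart.

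In adults the same comparison gave no call. All 9 tested members missed the threshold, where 0.217% of all tested genes were called higher and 0.517% lower, so a share of this size among 9 genes says little about the family. By unadjusted p, 2 of the 9, Mal-A7 and Mal-A8, were below 0.05. The median difference was 0.53 on the log2 scale, against -0.05 over all tested genes.

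Mal-A7 stood at 49.3 and 58.3 FPKM in the A4 adults and at 27.0 and 10.2 FPKM in the A12 adults. The groups were apart, with the A12 libraries differing 2.65-fold from each other. The log2 difference was 1.63 ± 0.39 (SE, limma adjusted p = 0.225), and without replicate 1 of the A12 adults it was 2.29 and passed (adjusted p = 0.011).

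Mal-A8 stood at 46.1 and 53.4 FPKM in the A4 adults and at 30.8 and 24.4 FPKM in the A12 adults. Mal-A6 showed 147 and 168 FPKM against 99.2 and 69.8 FPKM. For both genes each A4 library exceeded each A12 library. The log2 differences were 0.83 ± 0.34 for Mal-A8 and 0.91 ± 0.46 for Mal-A6 (SE, limma adjusted p = 0.455 and 0.54).

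Mal-A1 stood at 439 and 421 FPKM in the A4 adults and 291 and 267 FPKM in the A12 adults, and its means differed 1.54-fold. Mal-A2, at 32.2 and 34.4 against 28.9 and 24.1 FPKM, Mal-A3, at 26.3 and 21.2 against 15.5 and 16.6 FPKM, and Mal-A4, at 35.0 and 29.5 against 24.0 and 23.9 FPKM, were likewise apart between groups. Their log2 differences were 0.62 ± 0.51, 0.32 ± 0.34, 0.53 ± 0.53 and 0.41 ± 0.59 for Mal-A1 to Mal-A4 (SE, 2 libraries per group). None exceeded its error by enough to pass, and the limma adjusted p was 0.711 to 0.876. Mal-A5, at 136 and 101 against 115 and 101 FPKM, and Mal-B2, at 72.4 and 67.9 against 66.4 and 77.9 FPKM, overlapped between the genotypes.

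Mal-B1 was below a mean of 1 FPKM over the 8 libraries and was left out of the tests. It stood at 0.584 and 0.445 FPKM in the A4 adults and at 0.866 and 1.61 FPKM in the A12 adults, against 0.0289 to 0.0416 FPKM in larvae. Its adult values were higher in A12, without overlap, and its larval values overlapped. With no filter on low values the adult difference was -0.55 ± 0.16 on the log2 scale (SE, limma adjusted p = 0.412). The stage differences in that fit passed, at 1.09 ± 0.16 in A12 (adjusted p = 0.00688) and 0.55 ± 0.16 in A4 (adjusted p = 0.0498), both higher in adults.

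Whether the genotype difference itself changed with stage was tested by an interaction term. The difference between A4 and A12 was smaller in adults than in larvae for Mal-A2, Mal-A3 and Mal-A4, the 3 of 9 tested members called, where the same term called 17.6% of all tested genes. For Mal-A3 the adult minus larval change was -4.86 ± 0.76 on the log2 scale (SE, limma adjusted p = 0.00745), and it passed in all 18 alternative fits. For Mal-A4 it was -3.32 ± 0.83 (adjusted p = 0.0369), a call that held in 7 of 18 alternatives, with adjusted p from 0.01 to 0.125. For Mal-A2 it was -2.30 ± 0.49 (adjusted p = 0.0211), a call that held in 11 of 18, with adjusted p from 0.00598 to 0.0863.

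Mal-A1 had an interaction of -2.10 ± 0.72 and missed the threshold (SE, limma adjusted p = 0.0829). Mal-A5 had 0.96 ± 0.30, in the opposite direction, and also missed it (adjusted p = 0.0676). Mal-A6, Mal-A7, Mal-A8 and Mal-B2 gave 0.92, 1.01, 0.98 and 0.42 and did not pass, close to or above the all-gene median of 0.37. Without replicate 2 of the A4 larvae only Mal-A3 passed (-4.50, adjusted p = 0.0368), with Mal-A2 at -2.14 (adjusted p = 0.0745) and Mal-A4 at -2.81 (adjusted p = 0.109).

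The stage comparisons asked how maltase levels in adults differed from those in larvae of the same genotype. In A12, 6 of the 9 tested members were higher in adults and 1 was lower, where 41.1% of all tested genes were called higher and 17.6% lower. The 6 were Mal-A1, Mal-A2, Mal-A3, Mal-A4, Mal-A7 and Mal-B2, and the lower one was Mal-A5. This comparison shares the A12 larvae with the larval genotype comparison, so their values are not independent. Midgut markers moved with stage as well, 1 of the 11 tested being higher and 7 lower in A12 adults, and 1 higher and 6 lower in A4 adults. In A4 adults 55.8% of all tested genes were called higher and 13.9% lower. The 3 Peritrophin genes summed to 3906 to 18449 FPKM in the larval libraries and to 178 to 462 FPKM in the adult ones, and the other 9 markers to 296 to 347 and 167 to 199 FPKM. The part of midgut content in the stage differences was not tested.

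On the scale of log2(FPKM + 1), Mal-A1 had the largest stage difference of the tested members in A12, from 5.97 and 22.3 FPKM in larvae to 291 and 267 FPKM in adults, 4.46 ± 0.51 on the log2 scale (SE, limma adjusted p = 0.000251). Mal-A2 rose by 3.59 ± 0.34 (adjusted p = 0.000109), from 0.555 and 2.31 FPKM to 28.9 and 24.1 FPKM. Mal-A7 rose by 3.33 ± 0.39 (adjusted p = 0.000289), from 0.668 and 0.861 FPKM to 27.0 and 10.2 FPKM. The adult and larval libraries of all 3 genes were far apart. By the ratio of group means the order differed, with 24.3 for Mal-A7, 19.8 for Mal-A1 and 18.5 for Mal-A2. For the untested Mal-B1 that ratio was 32.2, on larval levels whose bounds reached 0.

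Mal-A3 and Mal-A4 rose by 2.47 ± 0.53 and 2.24 ± 0.59 in A12 (SE, limma adjusted p = 0.00572 and 0.0136). Mal-B2 rose by 0.63 ± 0.19 (adjusted p = 0.0261), against a median of 0.48 over all tested genes, and under median centring its difference was 0.09 with an adjusted p of 0.788. The call on Mal-A4 was also lost under median centring (adjusted p = 0.0655). These calls held in 14 of 19 alternatives for Mal-B2 and in 13 of 19 for Mal-A4. Mal-A5 fell by 1.38 ± 0.21 (adjusted p = 0.0012), from 297 and 265 FPKM to 115 and 101 FPKM. Mal-A6 and Mal-A8 differed by -0.06 and -0.19 and did not pass.

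In A4, 4 of 9 were higher in adults and 1 was lower, where 55.8% of all tested genes were called higher and 13.9% lower. Mal-A7 rose by 4.33 ± 0.39 (SE, limma adjusted p = 9.35e-05), from 1.64 and 1.78 FPKM in larvae to 49.3 and 58.3 FPKM in adults. Mal-A1 rose by 2.36 ± 0.51 (adjusted p = 0.00456), Mal-A2 by 1.29 ± 0.34 (adjusted p = 0.0116) and Mal-B2 by 1.04 ± 0.19 (adjusted p = 0.00233). The call on Mal-A2 held in 13 of 19 alternatives. The median over all tested genes was 0.88, and after median centring Mal-A7 alone was called higher, with Mal-A1 at 1.40 (adjusted p = 0.0834). These 4 calls held without replicate 2 of the A4 larvae, at 4.37 for Mal-A7 (adjusted p = 0.00167), 2.63 for Mal-A1 (0.0178), 1.45 for Mal-A2 (0.0363) and 0.97 for Mal-B2 (0.0149).

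Mal-A3 fell by 2.39 ± 0.53 from larvae to adults in A4 (SE, limma adjusted p = 0.00544), from 98.9 and 166 FPKM to 26.3 and 21.2 FPKM. Its stage difference thus had opposite signs in A12 and A4, and the interaction above is the test of that contrast. Mal-A4 went from 48.3 and 98.0 FPKM to 35.0 and 29.5 FPKM, a log2 difference of -1.08 ± 0.59 that did not pass (adjusted p = 0.139). Mal-A5 was at -0.41 ± 0.21, Mal-A6 at 0.86 ± 0.46 and Mal-A8 at 0.80 ± 0.34, and none passed (adjusted p = 0.121, 0.134 and 0.069). Without replicate 2 of the A4 larvae, Mal-A6 (1.56, adjusted p = 0.0134) and Mal-A8 (1.28, adjusted p = 0.0122) were called higher in adults as well, and Mal-A3 stayed lower (-2.02, adjusted p = 0.046).

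**Figure D3:**
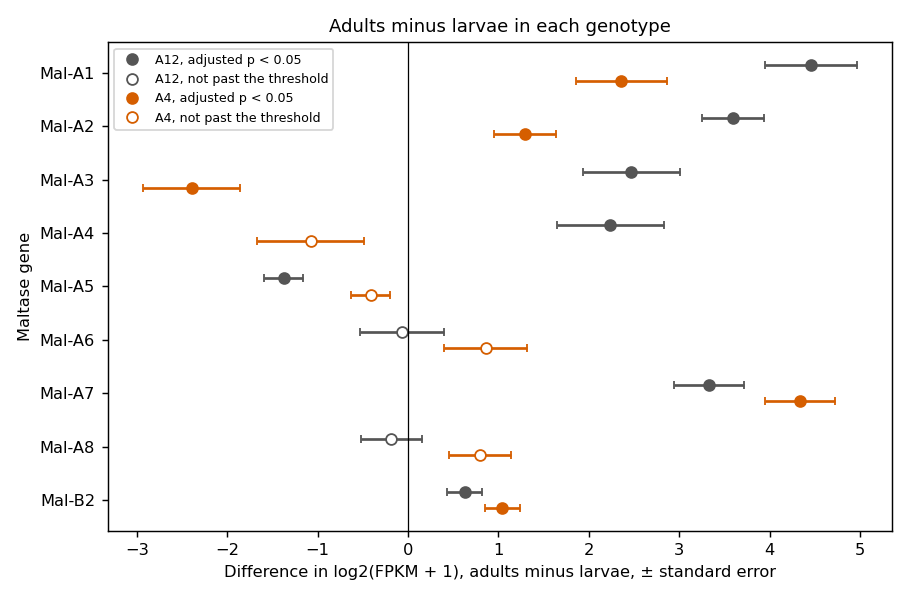
Difference between adults and larvae for the 9 tested maltase genes in each genotype, as adults minus larvae on the scale of log2(FPKM + 1) with its standard error. Filled points pass an adjusted p of 0.05, and Mal-A3 lies at 2.47 in A12 and at -2.39 in A4.

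Summed over the 10 genes, maltase signal was 501 and 741 FPKM in the A4 larvae, 443 and 504 FPKM in the A12 larvae, 983 and 954 FPKM in the A4 adults and 699 and 616 FPKM in the A12 adults. The larval sums of the 2 genotypes overlapped, whereas their make-up did not. Mal-A1 to Mal-A4 supplied 45.4% and 51.1% of the sum in the A4 larvae and 2.01% and 7.63% in the A12 larvae. In adults they supplied 51.5% to 54.1% in all 4 libraries.

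Mal-A5 made up 67.1% and 52.6% of the sum in the A12 larvae and 32.8% and 20.0% in the A4 larvae. In adults its share was 10.5% to 16.4%, and Mal-A1 alone supplied 41.7% to 44.6%. The A4 larvae thus lay near the adults in the share of Mal-A1 to Mal-A4 but not in which gene supplied it, since Mal-A3 gave 19.7% and 22.3% in the A4 larvae and 2.22% to 2.69% in adults. Depth is unknown for FPKM, so these shares carry no counting interval.

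**Figure D4:**
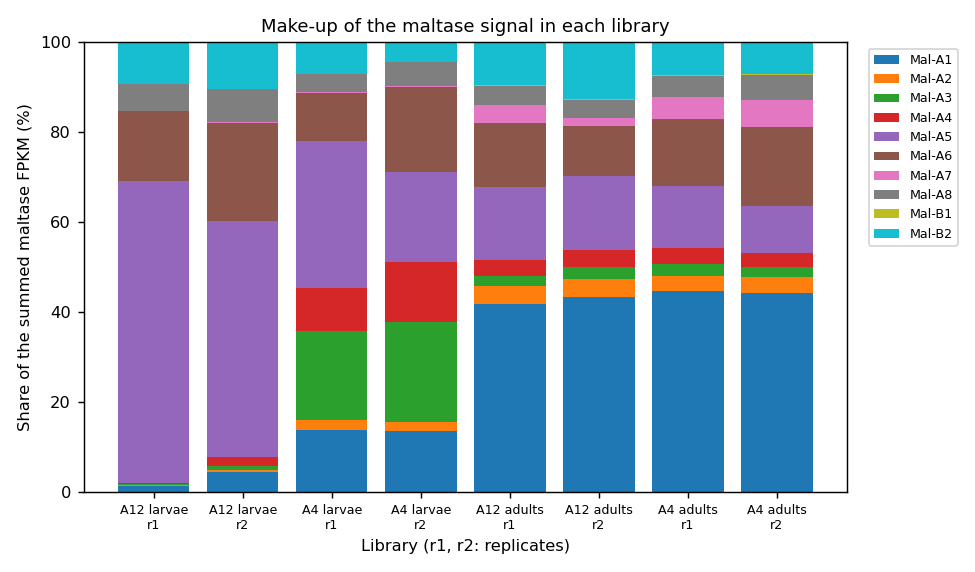
Share of the summed FPKM of the 10 maltase genes that each gene supplied in each library, in percent, with the 4 groups side by side. Mal-A5 takes 67.1% and 52.6% in the A12 larvae, and Mal-A1 takes 41.7% to 44.6% in the 4 adult libraries.

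Genes next to the maltase runs were examined as well. To the left of Mal-A1 lies Cyp4e1, which overlaps it by 84 bp and was listed at 0 in all 8 libraries, and to the right of Mal-A8 lies mtt, which overlaps it by 6 bp and was also listed at 0. An exact 0 may be a failed estimate, so no level is read from either. Of the 8 neighbouring or enclosing models tested, 1 was called higher and 1 lower in A4 larvae, and none in adults. Against 8.75% higher and 25.9% lower among all tested larval genes, and 0.217% and 0.517% in adults, these counts were about at or below the background. CG12780, to the right of the Mal-A run, stood at 58.4 and 84.4 FPKM in the A4 larvae and 148 and 116 FPKM in the A12 larvae (log2 difference -0.89, limma adjusted p = 0.0337). Its difference was -1.15 without replicate 2 of the A4 larvae (adjusted p = 0.0355). CG44008, to the left of Mal-B1, stood at 165 and 178 FPKM against 117 and 96.4 FPKM (0.68, adjusted p = 0.0323), and without that library its difference of 0.63 did not pass (adjusted p = 0.0978). Cyp4e2 on the left of the Mal-A run and Cyp6a14 on its right, both cytochrome P450 genes, differed by -0.36 and 0.34 and did not pass. CG14933 on the left of the Mal-B run and CG42751 on its right differed by -0.15 and 0.25 and did not pass. The microRNA gene mir-986, whose model of 100 bp lies within that of Cyp4e2, was listed at 0 in 4 of the 8 libraries and at 23.8 to 28.2 FPKM in the others. Or33a, an odorant receptor gene to the right of CG42751, was below the filter, at 0 in 7 libraries and 0.0477 FPKM in the other. Pde1c, which spans the Mal-B genes, was at 2.79 to 5.65 FPKM and differed by -0.01 in larvae. The labels do not state whether counting used the strand, so reads shared by overlapping models cannot be told apart.

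The deposited FPKM of some members did not lie within its own confidence bounds. It lay above the upper bound in 7 of 8 libraries for Mal-A3 and for Mal-A4, in 6 for Mal-A6 and Mal-A8 and in 4 for Mal-A7, and in no library for Mal-A1, Mal-A2, Mal-A5, Mal-B1 and Mal-B2. The ratio of the FPKM to the midpoint of its bounds reached 1.63 for Mal-A4 and 1.46 for Mal-A3. Over all tested genes, 7.63% to 13.3% lay above the upper bound in a library. With the midpoint taken as the level, an alternative added after the data were seen, the larval differences were 5.28 for Mal-A3 and 3.71 for Mal-A4, against 5.39 and 3.73. Reads shared among members of similar sequence could be divided in more than one way, and whether that occurred here was not tested.

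**Figure D5:**
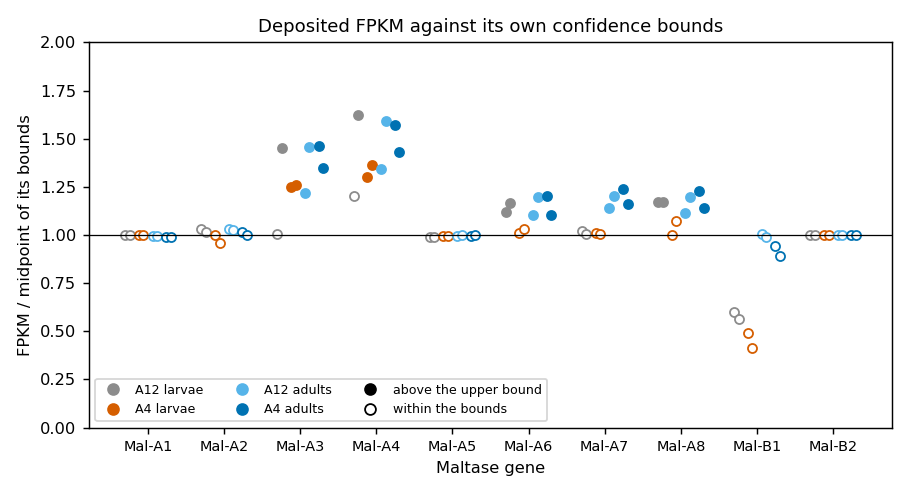
Deposited FPKM of each maltase gene divided by the midpoint of its own confidence bounds, with 1 point per library coloured by group, filled where the FPKM lies above the upper bound. Mal-A3 and Mal-A4 lie above the upper bound in 7 of 8 libraries, and the open points of Mal-B1 fall to 0.413 of the midpoint.

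The authors' deposited table of log2 ratios, with 9120 rows, holds 6 of the 10 members and leaves out Mal-A1 to Mal-A4. In the authors' deposited table the larval A4 to A12 ratios were -0.85 for Mal-A5, 0.11 for Mal-A6, 1.16 for Mal-A7, -0.09 for Mal-A8, -0.13 for Mal-B1 and -0.47 for Mal-B2. The adult ratios in the authors' deposited table were 0.13, 0.90, 1.53, 0.85, -1.27 and -0.04 in the same order. None differed by more than 0.00422 from the ratio recomputed here from the mean FPKM of each group.

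Other genes of carbohydrate digestion and sugar uptake were examined from a list of 24, of which 21 were found and 17 tested. This list and the sugar-sensing list below were written with earlier results of these data known. Their counts and medians are therefore a description and not a test of a shared response. In larvae 7 were higher in A4 and 2 lower, beside 8.75% higher and 25.9% lower over all tested genes, so the share of lower calls was under the background. The median difference was 0.48 against -0.43 over all tested genes. In adults 0 were higher and 0 lower, beside 0.217% and 0.517% of all tested genes, with a median of 0.17, and 1 of the 17, CG1208, had an unadjusted p below 0.05. The 7 were CG9463, CG9465, CG9466 and CG9468, which belong to the lysosomal alpha-mannosidase family, the amylases Amy-p and Amy-d and the sugar transporter gene CG1208.

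CG9468 stood at 366 and 256 FPKM in the A4 larvae and at 6.14 and 16.3 FPKM in the A12 larvae, a log2 difference of 4.79 (limma adjusted p = 0.00057). CG9466 differed by 4.84, CG9463 by 3.78 and CG9465 by 3.22, with both A4 libraries above both A12 ones in each. In adults these 4 gave 0.34, -0.50, 0.21 and -0.14 and did not pass. Alpha-mannosidases are known to remove mannose from glycoproteins rather than to digest starch.

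Amy-p stood at 96.1 and 167 FPKM in the A4 larvae and at 11.4 and 54.9 FPKM in the A12 larvae, a log2 difference of 2.28 (limma adjusted p = 0.0323). Amy-d, its close copy, stood at 178 and 262 FPKM against 29.0 and 120.04 FPKM, a difference of 1.85 (adjusted p = 0.0467). Both amylases were lowest in replicate 1 of the A12 larvae, as were Mal-A1 to Mal-A4. The 2 copies share much of their sequence, so their separate levels are uncertain. The third amylase-like gene, Amyrel, overlapped between groups at 29.5 and 45.7 against 26.3 and 80.02 FPKM.

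The 2 genes lower in A4 larvae were Gal, a beta-galactosidase, at 22.8 and 27.1 against 122 and 99.5 FPKM (log2 difference -2.11, limma adjusted p = 0.000491), and Glut1, a glucose transporter, at 7.18 and 6.48 against 41.6 and 28.5 FPKM (-2.18, adjusted p = 0.000801). CG1208 was higher at 5.46 and 5.62 against 1.09 and 1.48 FPKM (1.52, adjusted p = 0.00117). Trehalase Treh (-0.32) and the trehalose synthase gene Tps1 (0.69) did not pass. These genes were also fitted without replicate 2 of the A4 larvae, which leaves a lone library in that group. The differences were then 5.04 for CG9468 (limma adjusted p = 0.00659), 4.87 for CG9466 (0.00587), 3.47 for CG9463 (0.0338), 3.00 for CG9465 (0.00474) and 1.51 for CG1208 (0.0121). Gal (-2.23, adjusted p = 0.00472) and Glut1 (-2.12, 0.0103) also passed, whereas Amy-p (1.88, 0.151) and Amy-d (1.57, 0.186) did not. In the fit to larvae alone 4 were higher, where 422 of all 9679 tested genes were.

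Of 12 genes of sugar sensing and its signals written on a second list, 9 were tested. In larvae sug, the Gli-like transcription factor sugarbabe that responds to dietary sugar, was higher at 15.9 and 11.4 FPKM in A4 against 3.78 and 6.76 FPKM in A12 (log2 difference 1.25, limma adjusted p = 0.0147), and none was lower. Its difference was 1.47 without replicate 2 of the A4 larvae (adjusted p = 0.0358). The list's median was -0.36, near that of all genes, of which 8.75% were called higher and 25.9% lower. The Dawdle gene daw (-0.42) and its receptor gene babo (-0.41) did not pass in larvae. In adults none passed, and daw, at -0.52, had the one unadjusted p below 0.05 (0.0183, adjusted 0.376).

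The genes closest in pattern to each tested member were ranked by the root mean square difference of their log2 values, each centred on its own mean over the 8 libraries. Mal-A6 and Mal-A8 were each other's nearest gene among all tested, at 0.15. Both carried the same ups and downs between replicates of a group, high in replicate 2 of the A4 larvae and low in replicate 2 of the A12 adults. No other member had a maltase gene among its nearest 3. This distance also counts differences in the size of a change. By Pearson correlation of log2(FPKM + 1) over the 8 libraries, Mal-A1 with Mal-A2 (0.99) and Mal-A3 with Mal-A4 (0.97) also ran together. The correlation was 0.98 for Mal-A6 with Mal-A8. The FPKM of Mal-A3 and Mal-A4 lay above the upper confidence bound in the same 7 libraries, and that of Mal-A6 and Mal-A8 in the same 6. For Mal-A1 and Mal-A2 it did so in none. The part of this in the correlations was not tested. Mal-A5 ran against Mal-A1 (-0.95) and Mal-A2 (-0.96).

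The 3 genes nearest to Mal-A1 were CG6484 (0.25), CG11796 (0.29) and GstE8 (0.43). Those nearest to Mal-A2 were CG9396 (0.29), the aldehyde dehydrogenase gene Aldh (0.29) and CG7300 (0.30). Those nearest to Mal-A3 were CG9468 (0.46), CG9466 (0.50) and CG8628 (0.55), the first 2 from the carbohydrate list above. CG8628 was also near Mal-A4 (0.30), between CG31086 (0.28) and CG16775 (0.31). The values give a distance over 8 libraries that share genotype, stage and processing.

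Mal-A5, the member with the opposite larval direction, lay nearest to CG32276 (0.11), GEFmeso (0.12) and the tubulin gene alphaTub84B (0.12). Mal-B2 lay nearest to CG4802 (0.11), cu (0.12) and CG8388 (0.13), and Mal-A7 to CG32625 (0.41), CG10477 (0.42) and CG14834 (0.43). After Mal-A8, Mal-A6 lay nearest to MED25 (0.30) and MrgBP (0.34), the same genes that followed Mal-A6 for Mal-A8 (0.18 and 0.23).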

How the data were processed

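RNA from whole females was prepared with a TruSeq kit after Ribo-Zero rRNA removal, per the labels' protocols. Bowtie2, TopHat and Cufflinks and the dm3 build are named in the submitters' processing notes; the sources used here do not give annotation, strandedness or depth. The authors deposited Cufflinks gene-level FPKM with lower and upper confidence bounds (8 files, their FPKM and bounds per gene) and a table of log2 ratios between genotypes; the authors' log2 values were used for description. The files hold no counts, so precision is known only from the 2 libraries per group.

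Of 15296 gene models, 17 with a failed or high-data status were removed, and 9679 whose mean over 8 libraries reached 1 FPKM were tested on log2(FPKM + 1) with limma 3.58.1 (R 4.3.3), with moderated variances following a mean trend, 1 fit of 4 group means and Benjamini-Hochberg adjustment over all tested genes at 0.05. Fold changes on this scale understate changes of low genes. Symbols at more than 1 locus numbered 105 and include no member. Summaries and plots used Python 3.11.15, pandas 2.3.3, numpy 2.4.6 and matplotlib 3.10.9. The fit was tested on simulated data. All 10 members are named, with every carbohydrate or sugar-sensing gene past the threshold, up to 8 per genotype comparison by smallest p, 2 neighbours on each side of a run and the 3 genes of nearest pattern; a gene outside that rule was named after its values were seen. Members and lists were chosen with earlier results of these data known. Alternatives were the pseudocount (0.1, 5), the filter (none, 5 FPKM), median centring, quantile normalization, no trend, robust variances, the compared groups alone, a replicate block and leaving out each library; fits without a library assume the lone one varies like the other groups. The BDGP6 annotation served for gene structure only, and sequences are not analysed here.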

Additional observations from a re-analysis of the deposited data

Results flagged for a closer look

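The difference between A4 and A12 passed the interaction test with stage for 3 members in the limma fit, of which Mal-A3 passed in all 18 alternatives, Mal-A2 in 11 and Mal-A4 in 7. The same test called 17.6% of all tested genes. The adult minus larval change on the log2 scale was -2.30 for Mal-A2, -4.86 for Mal-A3 and -3.32 for Mal-A4. For all 3 the larval A4 libraries exceeded the A12 libraries by far, while the adult groups were apart by less than the test could call. The labels give no age within the third instar, so genotype and larval age cannot be told apart.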

How the results depend on the processing

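Of 846 comparisons of a member's log2 difference with an alternative fit, 765 kept their direction and side of the threshold, 46 lost a call, 14 gained one and 21 changed sign. Many alternatives leave the difference itself unchanged and could not turn its sign. These are the filter, the trend, robust variances, the replicate block, the compared groups alone and leaving out a library of another group. The 846 also include differences that were never called, so the 765 does not measure how firm the calls are. The larval call on Mal-A3 passed in all 19 alternatives, at 4.17 to 6.28. In the fit to larvae alone 2 members were higher and 0 lower, where 422 and 614 of all 9679 tested genes were. Median centring gave 0 members lower in larvae, where 982 of all 9679 tested genes were. In the A4 stage comparison it gave 1 higher and 3 lower, where 2273 and 2904 of all tested genes were. Quantile normalization gave 2 lower there, where 2280 of 9679 were. With no filter 1 interaction was called, where 713 of 15279 genes were called higher and 535 lower. The cause of these moves was not tested. Leaving out 1 library in turn changed the number of members called in every comparison, among them the members called higher in larvae. Such fits hold a lone library in 1 group, so only differences are given. In larvae these were 1.85 to 3.59 for Mal-A1, 2.08 to 3.17 for Mal-A2, 4.50 to 6.28 for Mal-A3 and 2.77 to 4.68 for Mal-A4. The interaction of Mal-A7 (1.67, adjusted p = 0.0268) and its adult genotype call passed without replicate 1 of the A12 adults, and that of Mal-A1 (-2.97, adjusted p = 0.0078) without replicate 2 of the A12 larvae.

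The signs that turned all belonged to differences that had not passed. Under median centring Mal-A6 gave 0.45 and Mal-A8 0.31 in larvae, Mal-A6 -0.10 and Mal-A8 -0.17 by stage in A4, and Mal-B2 0.0062 in larvae and -0.0075 for the interaction. Under quantile normalization Mal-A6 gave 0.19 and Mal-A8 0.21 in larvae and Mal-B2 0.0782 in adults. With the midpoint of the bounds, Mal-A6 gave 0.15 and Mal-A8 0.02 in larvae. Leaving out 1 library in turn gave -0.72 to 0.69 for Mal-A6 and -0.63 to 0.33 for Mal-A8 in larvae, -0.10 to 0.33 for Mal-A5 and -0.15 to 0.0781 for Mal-B2 in adults, and -0.40 to 0.28 for Mal-A6 and -0.43 to 0.0563 for Mal-A8 by stage in A12.

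With the replicate block the member counts were as without it. They were 4 higher and 1 lower in larvae and 0 and 0 in adults. By stage they were 6 and 1 in A12 and 4 and 1 in A4, with 3 interactions. Of all 9679 tested genes, that fit called 885 higher and 2715 lower in larvae and 18 and 41 in adults. By stage it called 4084 and 1738 in A12 and 5481 and 1368 in A4. Its interaction calls were 1086 higher and 664 lower. Over all tested genes, libraries of the same number did not deviate together (correlations of -0.06 to 0.09). A pairing that affects only some genes would not show in these correlations and was not tested.

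Over all genes the split of larval calls was 847 higher and 2507 lower, and after median centring 1326 and 982. By stage it was 3974 and 1701 in A12, against 2621 and 2828, and 5397 and 1345 in A4, against 2273 and 2904. Interactions split into 1051 higher and 653 lower, against 574 and 934.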
